A study of Mus musculus with 8 samples.

Results

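Chromatin accessibility was mapped region by region over the Ccr7 locus on mouse chromosome 11, in type 1 conventional dendritic cells (cDC1s) sorted from tumours at 2 times. The locus was taken as all deposited regions centred within 50 kb of the Ccr7 gene body (chr11:99144199-99155077, mm10, 10879 bp), which gave 30 of 128057 regions. Its regions were taken by position, without use of their values, but the locus was chosen with earlier results of these data known. The tumours were B16-OVA, a mouse melanoma line that carries the model antigen ovalbumin, and all mice were labelled wild type. 4 libraries came from cells sorted at day 21 after inoculation and 4 from cells sorted at day 7. The assay was ATAC-seq, in which a transposase cuts and tags open DNA, and a region's count is read as its accessibility. The labels give no age, batch or pooling of the mice. They also leave unsaid whether same-day libraries are separate animals, and the p-values rest on the spread among libraries, which may be technical. A sorted sample is a mixture in which fewer cells with an open locus and a less open locus in each cell cannot be told apart.

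CCR7 is the chemokine receptor that steers dendritic cells from tissues through lymphatic vessels to lymph nodes. It binds the chemokines CCL19 and CCL21 and is switched on as dendritic cells mature. It is also carried by naive and central memory T cells and by B cells. Accessible regions around a gene include its promoter and possible enhancers, which are stretches of DNA that transcription factors bind and that can act on a promoter from a distance. ATAC-seq shows that such a stretch is open, not which gene it acts on.

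Regions were numbered 1 to 30 by position, from the lowest coordinate up. The gene table gives no strand, so the sides of the gene are called by coordinate; as background, mouse Ccr7 is transcribed towards lower coordinates, which places its start at the higher-coordinate end. Regions 1 to 11 lay in the lower-coordinate flank, 12 and 13 within 1000 bp of the lower-coordinate end, 14 and 15 in the inner gene body, 16 at the higher-coordinate end and 17 to 30 in the higher-coordinate flank. Together they covered 13453 bp, with widths of 142 to 1748 bp. Besides Ccr7, the window held 1 RefSeq gene, the non-coding RNA gene Gm32249 (chr11:99168312-99175730), 13.2 kb beyond the higher-coordinate end. The nearest protein-coding genes lay outside the window. Tns4, which encodes the focal adhesion protein tensin 4, ended 54.9 kb below Ccr7, and Smarce1, which encodes a subunit of the SWI/SNF chromatin remodelling complexes, began 54.0 kb above it.

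The total count over all regions was 14021151 to 27737040 per day 21 library and 9440223 to 16063736 per day 7 library. The Ccr7 locus took 1838 to 3290 of these counts at day 21 and 1852 to 3081 at day 7. Values are CPM, counts relative to the total of a library, scaled with TMM factors of 0.978 to 1.01. The cDC1 label was checked against marker genes at their gene ends, meaning regions within 1000 bp of either end of a gene. Of 14 cDC1 markers 13 had such a region, and their summed level was 569.3 to 614.4 CPM at day 21 and 555.1 to 589.3 CPM at day 7. Irf8, which encodes a transcription factor that cDC1s require, was lower at day 21 at its ends (log2 fold change −0.51 ± 0.07, edgeR adjusted p = 8.15e-08), and Wdfy4, Naaa and Gcsam were higher. Itgae had no region at its ends. Over all protein-coding genes tested at their ends, 24.6% of 13572 were lower at day 21 and 6.71% were higher, and the counts of markers below stand beside these shares.

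Other cell types also carry CCR7 or could enter a sort. T and NK cell markers summed to 133.9 to 150.0 CPM at day 21 and 147.0 to 162.2 CPM at day 7, so that the ranges overlapped. Of 14 that could be tested 7 were lower, 1 was higher and 6 were not called at day 21, against the 24.6% and 6.71% of all gene ends. The 7 lower ones were Cd2, Cd5, Cd6, Cd28, Bcl11b, Tcf7 and Eomes, with log2 fold changes from −2.025 (Bcl11b) to −0.316 (Cd5). Most of the sum came from a few genes that did not move one way. Cd3d averaged 23.3 CPM at day 21 and 25.4 CPM at day 7, Cd247 averaged 29.95 CPM at day 21 and 27.1 CPM at day 7, and Cd5 averaged 23.7 CPM at day 21 and 29.5 CPM at day 7. Klrb1c, which was called higher, averaged 20.2 CPM at day 21 and 13.99 CPM at day 7. Other defining genes were near 0: Cd3e averaged 0.977 CPM at day 21 and 1.07 CPM at day 7, Cd3g 0.254 CPM at day 21 and 0.828 CPM at day 7, and Bcl11b 0.580 CPM at day 21 and 2.13 CPM at day 7, while Lck and Ncr1 had no region at their ends. B cell markers summed to 76.7 to 79.4 CPM at day 21 and 70.2 to 72.2 CPM at day 7, with Fcrla higher and the other 7 of 8 not called; Pax5 had no region. Macrophage and monocyte markers summed to 161.4 to 190.2 CPM at day 21 and 148.5 to 163.8 CPM at day 7, with 1 of 14 lower and 4 higher (24.6% and 6.71% of all gene ends). Plasmacytoid dendritic cell markers were tested at 3 genes (2 lower, 1 higher), melanoma markers at 5 (2 lower, 1 higher), stromal markers at 4 (1 lower) and cDC2 markers at 7 (1 higher), numbers too small to set against those shares. Neutrophil markers summed to 7.45 to 10.6 CPM at day 21 and 7.14 to 9.78 CPM at day 7. The part of these markers in the results on Ccr7 was not tested. Sequencing depth also moved with the day. With all libraries thinned to the total of the smallest, the log2 fold change of the locus sum was −0.74, against −0.77 at full depth.

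The Ccr7 locus was less accessible at day 21. Summed over its 30 regions, it had 131.6, 110.6, 124.0 and 117.0 CPM in the day 21 libraries, against 214.5, 196.7, 221.5 and 191.4 CPM in the day 7 libraries. Every day 21 library lay below every day 7 library. The means were 120.8 ± 9.03 CPM at day 21 and 206.0 ± 14.3 CPM at day 7 (SD, n = 4 each), a log2 fold change of −0.77 ± 0.05 (SE, edgeR quasi-likelihood test, adjusted p = 7.96e-20). By the same rule 23.7% of 18718 protein-coding gene loci were lower at day 21, and 118 loci (0.63%) had a lower log2 fold change than Ccr7, although loci of neighbouring genes share regions. As Ccr7 was chosen with earlier results known, this rank is a description. As a share of all counts in regions, which uses no TMM factor, the Ccr7 locus took 0.0121% ± 0.000981 at day 21 and 0.0206% ± 0.00142 at day 7 (exact two-sided permutation p = 0.0286, the smallest that 4 libraries against 4 can give).

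**Figure D1:**
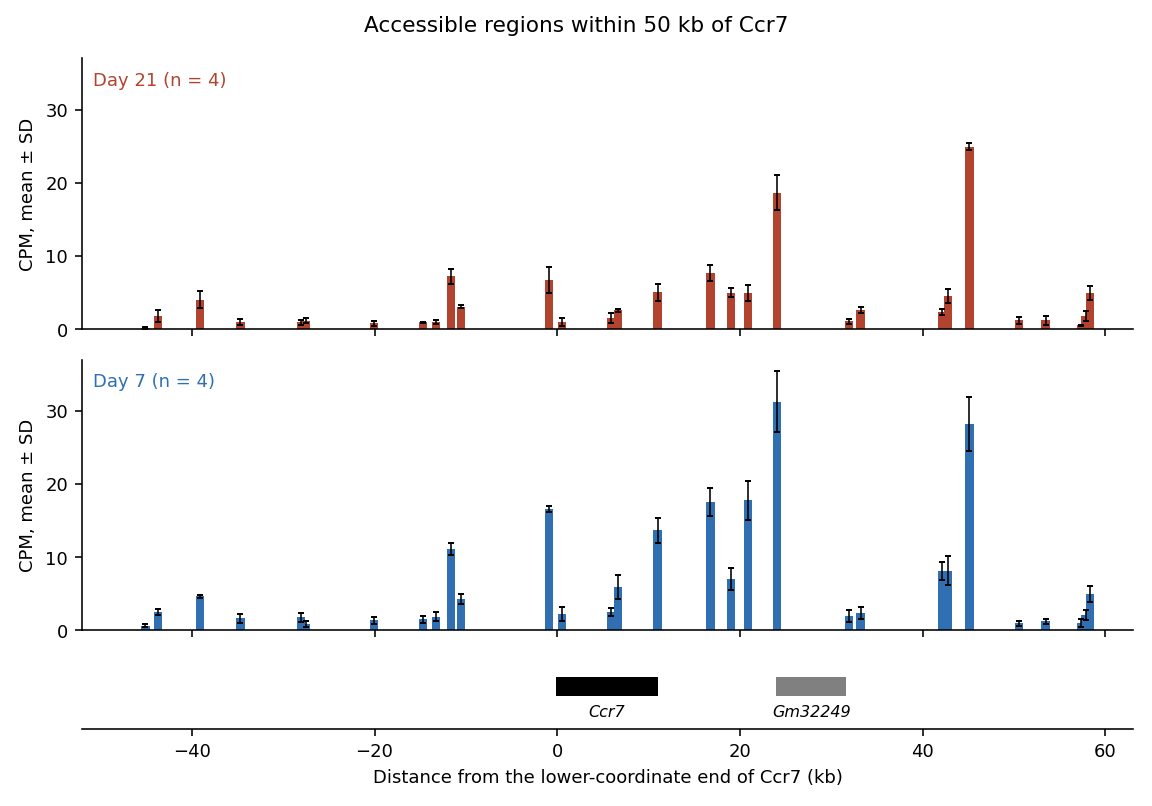
Mean CPM (± SD, n = 4 libraries each) of the 30 regions at day 21 (top) and day 7 (middle) against distance in kb from the lower-coordinate end of Ccr7, with the extents of Ccr7 and Gm32249 below. The bars at the gene and in the adjoining higher-coordinate flank are shorter at day 21, while the tallest bar of the top panel, region 25, has 25.0 CPM at day 21 and 28.2 CPM at day 7.

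**Figure D2:**
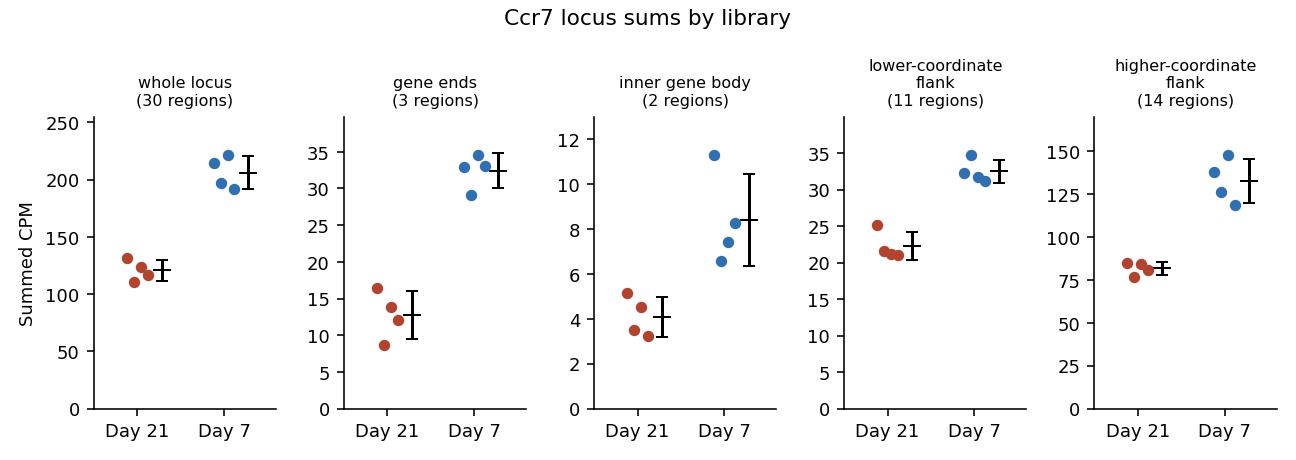
Summed CPM per library of the whole locus, the gene ends, the inner gene body and both flanks, with the mean and SD (n = 4) of each day beside the points. In all 5 panels every day 21 library lies below every day 7 library; axes start at 0 and differ between panels.

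All parts of the locus moved in that direction, by unequal factors. The 3 regions at the gene ends summed to 16.4, 8.72, 13.8 and 12.1 CPM at day 21, against 33.0, 29.1, 34.6 and 33.1 CPM at day 7. Their log2 fold change was −1.36 ± 0.10 (edgeR adjusted p = 3.10e-17), where 24.6% of 13572 gene-end sums were lower at day 21 and 0.597% had a lower log2 fold change. The inner gene body averaged 4.10 ± 0.89 CPM at day 21 and 8.39 ± 2.05 CPM at day 7 (−1.06 ± 0.18, edgeR adjusted p = 4.87e-06; 11.1% of gene bodies were lower). The lower-coordinate flank averaged 22.2 ± 1.93 CPM at day 21 and 32.5 ± 1.57 CPM at day 7 (−0.55 ± 0.08, edgeR adjusted p = 4.95e-07; 19.4% of such flanks were lower). In the higher-coordinate flank the means were 81.7 ± 3.79 CPM at day 21 and 132.7 ± 12.8 CPM at day 7 (−0.70 ± 0.06, edgeR adjusted p = 2.13e-17; 18.8% were lower). None of these 5 sums had libraries that overlapped between the days.

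Whether gene and flanks moved by the same factor was tested within each library, where scaling cancels. The log2 ratio of flank counts over gene-end and gene-body counts was 2.36, 3.01, 2.53 and 2.73 in the day 21 libraries, against 1.94, 2.17, 2.096 and 1.86 in the day 7 libraries. It was higher by 0.64 at day 21, with no overlap (exact two-sided permutation p = 0.0286). The gene ends thus held 10.5% ± 1.92 of the locus counts at day 21 and 15.8% ± 1.08 at day 7. The log2 ratio of the higher-coordinate over the lower-coordinate flank was 1.88 ± 0.105 at day 21 and 2.03 ± 0.162 at day 7. This difference of −0.15 was within the spread of the libraries (exact two-sided permutation p = 0.2). With flanks of 25 kb in place of 50 kb it was −0.34 (exact two-sided permutation p = 0.0286).

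Of the 30 regions, 28 passed the filter on low counts and were tested. By edgeR 11 were lower at day 21, against a background of 9.85% of 121955 regions, and 17 did not pass. No region was higher, where the background was 9.49%: edgeR gave 0 at an unadjusted p under 0.05 as well, and DESeq2 and limma-voom gave 0. At least 2-fold lower were 7 regions, 12, 13, 15, 16, 17, 19 and 23, against 3.76% of all regions tested. At 11 regions every day 21 library lay below every day 7 library, against 9.79% of all regions tested. Of these 11, 8 were called, while regions 1, 9 and 11 were untested or not called. Of the 14 regions that averaged 3 CPM or more over the 8 libraries 10 were lower, where 11.3% of such regions were lower in the whole table. Of the 16 weaker ones, 2 of them untested, 1 was lower, where 8.21% of such regions were lower in the whole table. The median log2 fold change was −0.73 over the 28 regions and 0.00169 over all regions tested.

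**Figure D3:**
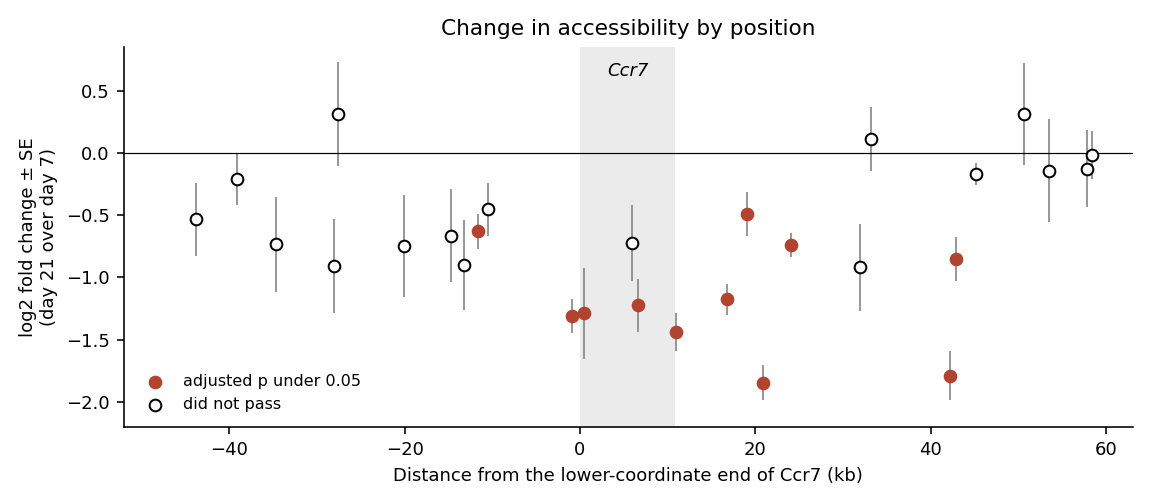
Log2 fold change (day 21 over day 7) ± SE of the 28 tested regions against distance in kb from the lower-coordinate end of Ccr7 (gene body shaded), with filled points for an edgeR adjusted p under 0.05. All 11 filled points lie below 0, from −1.85 to −0.49, and most stand at the gene and in the higher-coordinate flank next to it.

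The regions at the ends of the gene were all lower at day 21. Region 16 (chr11:99154764-99155599), which spans the higher-coordinate end, had 5.91, 3.49, 6.01 and 4.84 CPM at day 21, against 14.5, 11.6, 15.6 and 12.9 CPM at day 7. The 2 days stood well apart, with a log2 fold change of −1.44 ± 0.15 (edgeR adjusted p = 2.24e-11). At the other end, region 12 (chr11:99142386-99144134), 1748 bp wide and centred 0.939 kb outside the gene, had 8.86, 4.51, 6.66 and 6.83 CPM at day 21, against 15.95, 16.7, 16.6 and 17.02 CPM at day 7 (−1.31 ± 0.14, edgeR adjusted p = 2.06e-11). Its day 7 libraries were close to each other and its day 21 libraries spread wider. Region 13 (chr11:99144535-99144853), just inside that end, had 1.62, 0.722, 1.12 and 0.427 CPM at day 21, against 2.49, 0.850, 2.36 and 3.17 CPM at day 7 (−1.29 ± 0.37, edgeR adjusted p = 0.00769). Replicate 2 of day 7 fell among the day 21 libraries, and the call was lost without day 21 replicate 4 (adjusted p = 0.058) or day 7 replicate 4 (adjusted p = 0.0872).

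Inside the gene, region 15 (chr11:99150456-99151164) had 2.88, 2.41, 2.65 and 2.31 CPM at day 21, against 8.14, 4.04, 5.65 and 5.84 CPM at day 7 (−1.23 ± 0.21, edgeR adjusted p = 9.77e-06). All day 21 libraries lay close together and the day 7 libraries were higher and more spread. The neighbouring region 14 (chr11:99149985-99150252) had 2.25, 1.08, 1.89 and 0.925 CPM at day 21, against 3.16, 2.55, 1.77 and 2.42 CPM at day 7. Its libraries overlapped and it did not pass (−0.73 ± 0.31, edgeR adjusted p = 0.0863), although it did with limma-voom (adjusted p = 0.0328) and without day 21 replicate 1 (adjusted p = 0.0329).

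The higher-coordinate flank held the region with the greatest change and the strongest regions of the locus. Region 19 (chr11:99164841-99165361), 10.0 kb beyond the gene, had 5.63, 3.37, 5.54 and 5.16 CPM at day 21, against 16.8, 16.6, 21.8 and 15.97 CPM at day 7. The days stood far apart (−1.85 ± 0.14, edgeR adjusted p = 1.99e-16), the lowest of the 28 log2 fold changes. Region 17 (chr11:99160711-99161223), 5.89 kb beyond the gene, had 8.72, 6.14, 8.19 and 7.86 CPM at day 21, against 19.7, 18.3, 16.9 and 15.3 CPM at day 7 (−1.18 ± 0.13, edgeR adjusted p = 5.20e-11). Per kb of width, regions 17 and 19 were equally open at day 7, at 34.2 CPM per kb each, and at day 21 they had 15.1 and 9.47 CPM per kb. Between them, region 18 (chr11:99163032-99163373) had 4.64, 4.27, 5.42 and 5.69 CPM at day 21, against 8.56, 4.89, 7.08 and 7.58 CPM at day 7. There replicate 2 of day 7 lay within the day 21 range, and the change was smaller (−0.49 ± 0.18, edgeR adjusted p = 0.0377). Its call was lost with DESeq2 (adjusted p = 0.0525) and with thinned counts (0.152). It was also lost without day 21 replicate 1 (0.0772) or 2 (0.109), or without day 7 replicate 1 (0.163), 3 (0.0695) or 4 (0.111).

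Region 20 (chr11:99167955-99168541) covers the lower-coordinate end of Gm32249. It had 20.5, 15.2, 19.5 and 19.6 CPM at day 21, against 31.7, 31.0, 36.3 and 26.0 CPM at day 7 (−0.74 ± 0.10, edgeR adjusted p = 1.70e-08). It was the most accessible region per kb at day 7 (31.9 CPM per kb at day 21 and 53.3 at day 7), and its share of the locus counts was 15.4% ± 1.24 at day 21 and 15.1% ± 1.21 at day 7. It moved by −0.74 where the locus sum moved by −0.77. The called regions 12, 13, 15, 16, 17, 19, 23 and 24 moved by more. RefSeq (GRCm38.p6) gives the 300 bases around the annotated start of this non-coding RNA, chr11:99168062-99168361 on the plus strand, which lie wholly inside region 20. They are printed because they are the sequence within the open part of the locus that the reference tables hold, with capitals for the motifs found.
Gm32249 start: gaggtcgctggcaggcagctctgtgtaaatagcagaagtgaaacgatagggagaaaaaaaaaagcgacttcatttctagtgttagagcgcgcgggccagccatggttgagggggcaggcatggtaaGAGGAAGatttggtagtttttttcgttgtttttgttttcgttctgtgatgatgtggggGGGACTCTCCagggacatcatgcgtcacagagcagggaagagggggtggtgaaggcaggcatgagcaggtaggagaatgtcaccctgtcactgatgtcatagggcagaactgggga

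The capitals mark GAGGAAG, a form of the motif of the myeloid factor PU.1, and a form of the NF-kB motif (GGGA and CC with any 4 bases between). Both were searched on both strands with 6 other motifs, and they do not overlap. In the promoter windows of the same length of all genes in the table (32851), GAGGAAG stood in 13.6% and the NF-kB form in 20.7%. TGANTCA (AP-1, in 7.81% of windows), GAAA repeated after any 2 bases (interferon response factors, 3.44%), TTCNNNGAA (STAT, 8.3%), TGTGGT (RUNX, 16.8%), CACGTG (E-box, 7.15%) and GGGCGG (Sp, 35.7%) had no match in these 300 bases. A match describes the letters only.

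**Figure D4:**
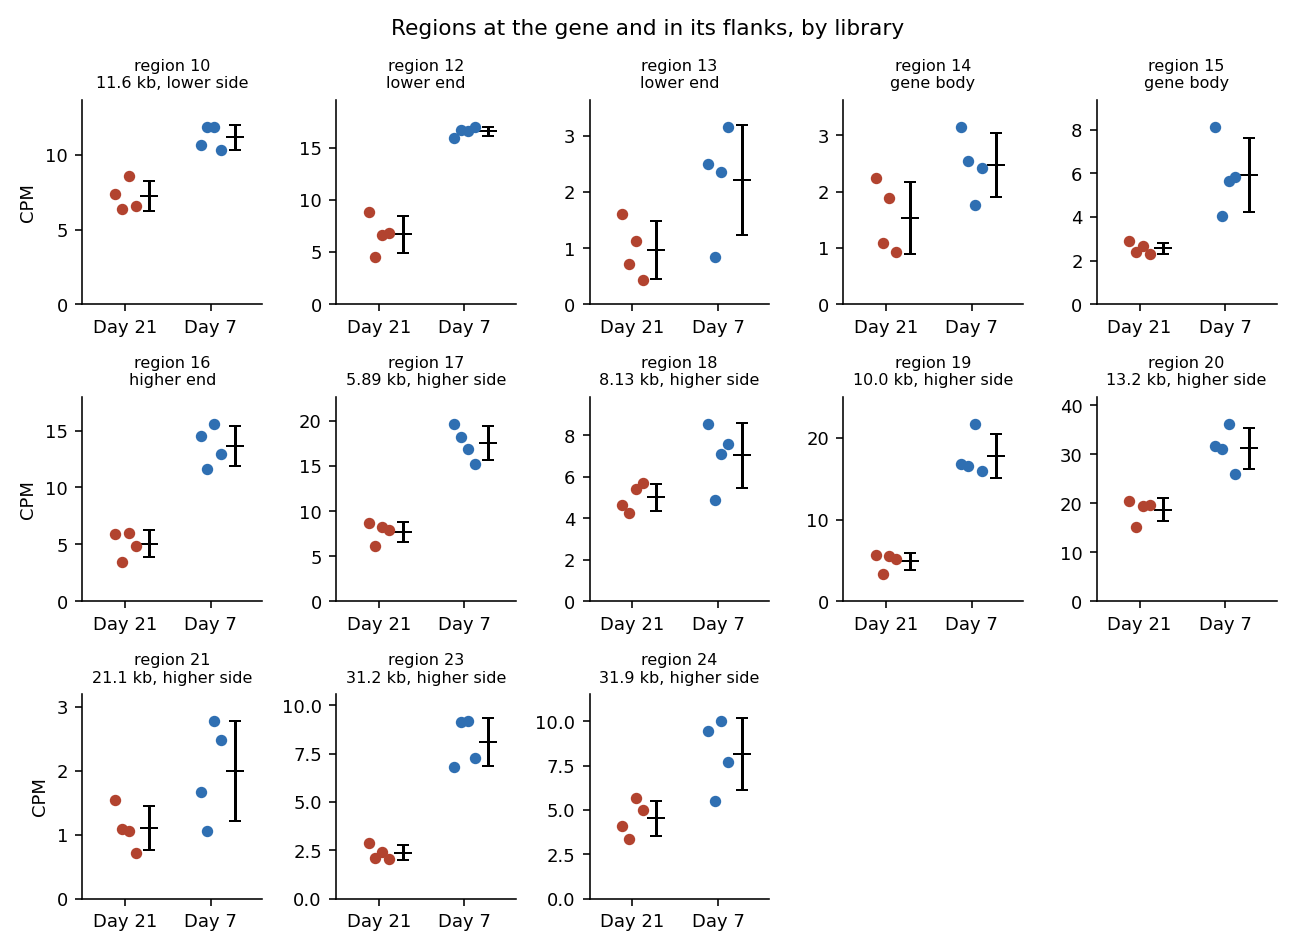
CPM per library at day 21 (left) and day 7 (right) of each panel for the regions at the gene ends, in the gene body and the 8 flank regions with the smallest p, with the mean and SD (n = 4). In regions 10, 12, 15, 16, 17, 19, 20 and 23 every day 21 library lies below every day 7 library; axes start at 0 and differ between panels.

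Farther out, changes of very different size stood close together. Region 21 (chr11:99175986-99176331), 21.1 kb beyond the gene, had 1.55, 1.08, 1.06 and 0.712 CPM at day 21, against 1.66, 1.06, 2.78 and 2.49 CPM at day 7 (−0.92 ± 0.35, edgeR adjusted p = 0.0525). It overlapped between the days and passed under 4 of 15 alternative settings. Region 23 (chr11:99186123-99186529), 31.2 kb beyond the gene, had 2.88, 2.11, 2.42 and 2.03 CPM at day 21, against 6.81, 9.14, 9.19 and 7.27 CPM at day 7 (−1.79 ± 0.20, edgeR adjusted p = 8.65e-11). It came next to region 19 in the size of its change. Its neighbour, region 24 (chr11:99186846-99187187), had 4.08, 3.37, 5.66 and 4.98 CPM at day 21, against 9.47, 5.52, 10.0 and 7.71 CPM at day 7 (−0.85 ± 0.18, edgeR adjusted p = 2.58e-04). There day 7 replicate 2 lay just below the highest day 21 library.

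Region 25 (chr11:99189026-99189637), which falls outside the naming rule and was chosen after its values were seen, lay 34.3 kb beyond the gene, next to region 24. It had 24.9, 25.6, 24.9 and 24.5 CPM at day 21, against 32.2, 28.2, 29.1 and 23.2 CPM at day 7, and did not pass (−0.17 ± 0.09, edgeR adjusted p = 0.185). It was the most accessible region of the locus at day 21, at 40.8 CPM per kb against 46.1 CPM per kb at day 7. As the rest of the locus was lower, its share of the locus counts was 20.8% ± 1.78 at day 21 and 13.7% ± 1.28 at day 7, with no overlap between the libraries. The remaining higher-coordinate flank regions that were tested, 22, 26, 27, 29 and 30, did not pass either. Region 30 (chr11:99202344-99202761), the last on that side, averaged 4.998 ± 0.936 CPM at day 21 and 5.016 ± 1.07 CPM at day 7 (−0.02 ± 0.19, edgeR adjusted p = 0.971).

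On the lower-coordinate side only region 10 was called, 11.6 kb from the gene (chr11:99132300-99132818). It had 7.38, 6.38, 8.61 and 6.58 CPM at day 21, against 10.6, 11.9, 11.9 and 10.3 CPM at day 7 (−0.63 ± 0.14, edgeR adjusted p = 6.59e-04). The next region, 11 (chr11:99133439-99133849), did not overlap between the days but did not pass, with means of 3.10 ± 0.251 CPM at day 21 and 4.27 ± 0.694 CPM at day 7 (−0.45 ± 0.21, edgeR adjusted p = 0.134). Of the 11 regions of this flank 10 had a lower mean at day 21, the exception being region 6. Over the whole locus 27 of 30 means were lower, and regions 6, 22 and 26, with higher ones, averaged at most 2.63 CPM at day 21. The 17 flank regions outside the naming rule, regions 11 and 25 included, had log2 fold changes of −0.91 to 0.32 where tested, and regions 1 and 28 were below the filter.

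Most of the difference therefore lay in one stretch. Regions 12 to 20 span 26.2 kb, the gene and the adjoining part of its higher-coordinate flank. They summed to 61.0, 41.2, 56.9 and 53.7 CPM at day 21, against 121.0, 106.4, 123.9 and 106.2 CPM at day 7, and the days did not overlap. The difference between the means of the locus was −85.2 CPM, of which this stretch held 71.8%, regions 21 to 30 held 16.1% and the lower-coordinate flank held the rest. Of the locus counts themselves the stretch held 43.8% at day 21 and 55.5% at day 7. Of its 9 regions 8 were called lower and 6 were at least 2-fold lower, against 9.85% and 3.76% of all regions tested. The limits of the stretch were set after the values were seen. Its counts and its shares of the locus therefore follow in part from that choice and are a description.

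The nearest protein-coding genes did not pass at their ends. Smarce1 had 17.4 ± 1.82 CPM at day 21 and 18.9 ± 2.38 CPM at day 7 (−0.13 ± 0.10, edgeR adjusted p = 0.368). Tns4 had 1.85 ± 0.488 CPM at day 21 and 2.19 ± 0.954 CPM at day 7 (−0.20 ± 0.32, edgeR adjusted p = 0.669). Igfbp4, 91.5 kb from Ccr7, which encodes an insulin-like growth factor binding protein, also did not pass (0.05 ± 0.17, edgeR adjusted p = 0.839). A window of 100 kb in place of 50 kb added no called region, so that the count was 11 with either, and the log2 fold change of its sum was −0.67. With 25 kb 9 regions were called and the log2 fold change was −0.99. At the limits of the 50 kb window, region 1 averaged 0.148 CPM at day 21 and 0.664 CPM at day 7, and the first region beyond it 0.838 CPM at day 21 and 1.21 CPM at day 7. On the other side, the first region beyond region 30 lay 73.5 kb from the gene and averaged 1.94 CPM at day 21 and 2.99 CPM at day 7.

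The same 50 kb rule was applied to 5 other loci, chosen as genes of migrating mature dendritic cells or as chemokine receptors. Fscn1, which encodes the actin-bundling protein fascin, summed to 129.4 ± 6.31 CPM at day 21 and 161.5 ± 6.62 CPM at day 7 (−0.32 ± 0.04, edgeR adjusted p = 9.21e-08). Slco5a1, a solute carrier gene, had 58.3, 45.8, 38.4 and 48.9 CPM at day 21, against 83.4, 82.2, 90.7 and 81.9 CPM at day 7 (−0.82 ± 0.07, edgeR adjusted p = 1.72e-14). Both were lower with no overlap between the days. Of the chemokine receptor loci, Cxcr5 (−0.09 ± 0.04, edgeR adjusted p = 0.0788) and Cxcr4 (0.02 ± 0.04, edgeR adjusted p = 0.747) did not pass. The locus of Xcr1, the chemokine receptor that marks cDC1s, was higher at day 21, but the gene ends of Xcr1 did not pass (below). The Xcr1 locus had 145.6 ± 8.28 CPM at day 21 and 125.5 ± 5.67 CPM at day 7 (0.21 ± 0.05, edgeR adjusted p = 2.38e-04). Of its 14 regions 4 were higher and 0 lower, where 9.49% of all regions tested were higher. At Cxcr5 4 of 28 regions were lower and 3 higher, and at Cxcr4 3 of 28 were lower and 2 higher. These counts are near the shares over all regions tested, 9.85% lower and 9.49% higher.

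Each locus was then set against Ccr7 within the libraries, with p-values adjusted over the 6 pairs tested. Relative to Fscn1 the log2 ratio of Ccr7 was −0.10 ± 0.0515 at day 21 and 0.35 ± 0.107 at day 7, a difference of −0.45. The differences were −0.68 against Cxcr5, −0.79 against Cxcr4 and −0.98 against Xcr1. In each of these 4 pairs the days had no overlap (exact two-sided permutation p = 0.0286, adjusted p = 0.0343). Against Xcr1 this was fixed by the sums, which moved in opposite directions with no overlap, so that p adds nothing to them. The sums of Cxcr5 and Cxcr4 did not pass, and the ratios to them mostly repeat the change of Ccr7. Ccr7 over Slco5a1 was 1.35 ± 0.231 at day 21 and 1.28 ± 0.0587 at day 7, and its difference of 0.07 was within the spread of the libraries (exact two-sided permutation p = 0.829). That does not show that both loci moved alike, since the day 21 values spread over the SD given.

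**Figure D5:**
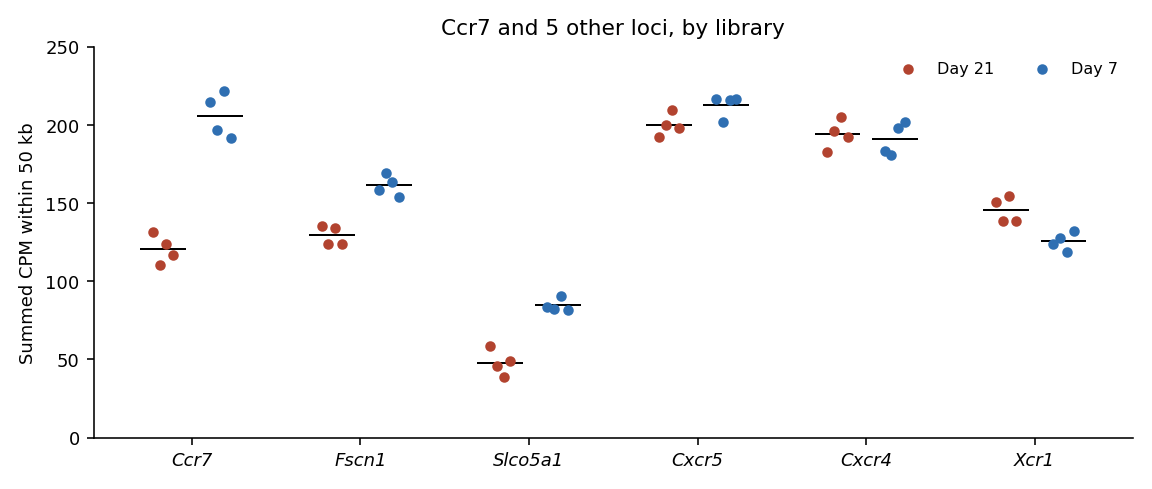
Summed CPM within 50 kb of Ccr7 and 5 other genes in each library, day 21 left of day 7, with a line at the mean (n = 4). The days do not overlap at Ccr7, Fscn1 and Slco5a1, with day 21 lower, nor at Xcr1, with day 21 higher; they overlap at Cxcr5 and Cxcr4.

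Fscn1, Cxcr5, Cxcr4 and Xcr1 were also measured at their gene ends, beside the −1.36 of Ccr7. The ends of Cxcr5 averaged 4.67 ± 1.39 CPM at day 21 and 15.3 ± 1.25 CPM at day 7 (−1.70 ± 0.15, edgeR adjusted p = 6.64e-15), and those of Fscn1 4.10 ± 1.09 CPM at day 21 and 14.1 ± 4.10 CPM at day 7 (−1.76 ± 0.17, edgeR adjusted p = 2.94e-13). CXCR5, the receptor for CXCL13, guides cells into B cell follicles. The ends of Cxcr4 (0.03 ± 0.07, edgeR adjusted p = 0.768) and of Xcr1 (−0.08 ± 0.11, edgeR adjusted p = 0.618) did not pass. Those of Xcr1 averaged 15.4 ± 1.80 CPM at day 21 and 16.1 ± 3.08 CPM at day 7.

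Fscn1, Cxcr5 and Cxcr4 belong to a list of 48 genes that act with CCR7, as ligands, scavengers, signalling parts or regulators. At their gene ends 43 had a region and were tested, of which 8 were lower and 3 higher at day 21 and 32 did not pass. The background at gene ends was 24.6% lower and 6.71% higher, and the list's counts are near or under those shares, so the calls below describe single genes. The median log2 fold change was −0.03 for the list and −0.09 over all gene ends. The ligand genes Ccl19, Ccl21a and Ccl21b and the scavenger receptor genes Ackr4 and Ackr2 had no region at their ends. Of the signalling parts below the receptor, Gnai2, which encodes a G protein subunit, did not pass (−0.13 ± 0.05, edgeR adjusted p = 0.0658), while the small GTPase gene Rhoa was lower (−0.15 ± 0.05, edgeR adjusted p = 0.0279) and Rac2 higher (0.21 ± 0.07, edgeR adjusted p = 0.0238). Mapk3, which encodes the kinase ERK1, was lower (−0.40 ± 0.10, edgeR adjusted p = 0.00234), and Grk6, a receptor kinase gene, was lower by a small amount (−0.16 ± 0.06, edgeR adjusted p = 0.0433). Dock8, an exchange factor gene needed for dendritic cell migration, was higher (0.28 ± 0.11, edgeR adjusted p = 0.0417).

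Among regulators of Ccr7 in the list, Relb, which encodes an NF-kB subunit of maturing dendritic cells, was lower and had 102.7, 103.0, 107.1 and 101.4 CPM at day 21, against 117.2, 135.1, 128.0 and 116.6 CPM at day 7 (−0.26 ± 0.05, edgeR adjusted p = 1.75e-04). Nr4a3, which encodes a nuclear receptor, was lower as well (−0.26 ± 0.06, edgeR adjusted p = 0.00112). The prostaglandin E2 receptor genes differed in direction, with Ptger4 lower (−0.23 ± 0.06, edgeR adjusted p = 0.002) and Ptger2 higher (0.37 ± 0.10, edgeR adjusted p = 0.00254). Nfkb1, Nr1h3, Nr1h2, Rxra, Traf6 and Runx3 did not pass. The changes of all called list members other than Fscn1 and Cxcr5 were between −0.40 and 0.37 on the log2 scale, against −1.36 at the ends of Ccr7. With offsets trended by level, 7 were lower and 1 was higher, and without day 21 replicate 2 or 3 also 1 was higher.

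The 5 genes whose gene-end log2 CPM followed the Ccr7 locus sum most closely over the 8 libraries, among 11344 genes averaging 5 CPM or more and lying over 1 Mb away, were Snap23 (Pearson r = 0.9915), Mdc1 (0.9908), Fut7 (0.9906), Rtkn2 (0.9895) and Apoa2 (0.9874). The Ccr7 values fall into 2 separate sets by day, so r mostly carries the difference between the days, and it is given as a description. Since they were chosen for following a sum that differs by day, their own difference between the days follows from the choice and is given without a test. Rtkn2 had 15.6 ± 0.860 CPM at day 21 and 25.4 ± 1.81 CPM at day 7. Snap23, which encodes a membrane fusion protein of secretion, had 21.9 ± 1.09 CPM at day 21 and 29.4 ± 1.39 CPM at day 7.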

How the data were processed

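ATAC-seq had been run on 8 libraries of cDC1s sorted from B16-OVA tumours. The authors deposited raw counts per region, whole numbers over 1 shared set of 128057 regions, with no normalization. The builds named in the submitters' processing notes are mm10 and GRCm38, and the tools named there are MACS2 2.1.0.20150603, bedtools, SAMtools, Picard 1.65 and cutadapt 1.9. The aligner, the read filters, the merging of peaks, any shift for the transposase and what was counted (reads, fragments or insertions) are not given in the sources used here, nor is the counting base of the coordinates (0 or 1). A shift moves a count by a few bases, and its effect was not tested. Regions had a median width of 364 bp.

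Groups and replicate numbers came from the labels. The test was that of edgeR 4.0.16 (R 4.3.3): filterByExpr (121955 regions kept), TMM factors, trended dispersion (common biological coefficient of variation 0.133) and a quasi-likelihood test with day as its only term, with Benjamini-Hochberg adjustment over all regions and a threshold of 0.05. The standard error is the log2 fold change over the square root of F. Sums over loci, gene ends, gene bodies and flanks were fitted in the same way for all protein-coding genes of a RefSeq table (21887 genes, GRCm38.p6, the assembly of mm10), with the totals and factors of the region fit. A region shared by several genes counted for each. For ratios within libraries the test was an exact permutation test (two-sided, 70 relabelings, SciPy 1.17.1). Pairs of libraries of a day differed beyond sampling noise (chi-square per degree of freedom 2.16 to 3.01), so none was a copy.

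By the naming rule, values per library are given for the regions at the gene ends and in the gene body and for the 8 flank regions with the smallest p. The locus, the gene lists and the comparison loci were chosen with earlier results of these data known. Of 6 comparison loci tested, 1 is not reported here, nor are some marker genes, while counts and adjustments include them. The alternatives were other scalings, filters, windows and tools (DESeq2 1.42.0, limma 3.58.1), a replicate block, thinned counts and leaving out each library.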

Additional observations from a re-analysis of the deposited data

Results flagged for a closer look

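In 4 of 70 groups of 4 libraries examined (the regions and sums of the locus, each day), the highest library stood far from the other 3, with a gap to the nearest of them that filled most of the group's range. Chance alone gives this in about 1 of 20 groups. Region 19 had 21.75 CPM in day 7 replicate 3, where the next day 7 library had 16.78 CPM. Region 11 had 5.311 CPM in day 7 replicate 2, next to 3.987 CPM. Region 9, in the lower-coordinate flank, had 1.336 CPM in day 21 replicate 1, next to 0.9024 CPM. The lower-coordinate flank summed to 25.1 CPM in day 21 replicate 1, next to 21.54 CPM. All 4 values still lay on their own day's side of the other day's libraries. Without the library in question, region 19 was still lower (log2 fold change −1.74, edgeR adjusted p = 4.59e-13), and so was the flank sum (−0.61, edgeR adjusted p = 7.10e-08).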

How the results depend on the processing

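The count of called regions was 9 to 14 under 18 alternative settings (11 in the report), and the log2 fold changes of the locus, gene-end, gene-body and both flank sums kept their direction and their calls under all of theirs; the locus sum ran from −0.992 (25 kb window) to −0.667 (100 kb window). The flanks-to-gene ratio difference of 0.637 was 0.519 to 0.738 with 1 library left out, each with an exact permutation p of 0.0571, the smallest that 3 libraries against 4 can give. No pairing by replicate number was seen. Same-numbered libraries had correlations of their deviations from the day's mean of 0.00436 to 0.00958, and differently numbered ones of −0.0114 to 0.0134. Sampling noise in weak regions lowers such correlations, so they cannot show that pairing is absent. With the replicate number as a block that ratio difference was 0.637 (exact p = 0.125, the smallest for 4 pairs), and the region count was 11. The ratio between the flanks passed in 1 alternative, a 25 kb window (−0.336, exact permutation p = 0.0286); the cause was not tested. Of the genes that act with CCR7, 1 was higher with trended offsets and 1 to 4 with 1 library left out (1 without day 21 replicate 2 or 3), against 3; the cause was not tested. Of 178 alternative values for 11 results, 0 reversed in direction, although those that are counts of regions or genes have no direction to reverse. Depth limits the weak regions: 16 regions averaged under 3 CPM, and one that did not pass there is not shown to be steady.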
